A study of Mus musculus with 2 samples.

Results

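A set of 73 plasma cell-like cells was found among the 3065 cells of the LSM gate, 2.38% of them (exact 95% interval 1.87 to 2.99%), in a single-cell study of progenitor heterogeneity in adult mouse liver that held 4313 cells in all. The animals were wild-type C57BL/6 mice, 7 to 10 weeks old, and droplet RNA sequencing was run on liver cells from 2 sorting gates. The LSM gate took CD45+Lin-Sca-1+Mac-1+ cells, where Lin- stands for the absence of lineage markers and Mac-1 for the integrin CD11b/CD18, and the second gate took CD45+Lin-CD122+CD49a+ cells. Each gate was 1 library, and the number of animals behind it and the antibodies of the lineage mix are not given in the sources used here. No value below therefore has a replicate, no p-value is given, and every interval (95%, exact) covers counting error only.

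The members were chosen by their own transcripts: at least 20 unique molecular identifiers (UMIs) of Jchain, at least 2 UMIs over Tnfrsf17, Eaf2, Sdc1 and Cd79a together, and at most 1 UMI of Siglech. Levels of these 6 genes are thus a description of the choice and not a result. A cell counted only if 500 or more genes were detected in it and no more than 10% of its UMIs were mitochondrial. The members are set against the other 2992 LSM cells that passed the same filter. A second comparison uses 163 plasmacytoid dendritic-like cells of the same library, which had at least 3 UMIs of Siglech and at least 2 over Klk1, Cox6a2, Ccr9 and Pacsin1. Cells with 20 or more Jchain UMIs were left out of this class. Plasmacytoid dendritic cells are interferon-producing cells that also have a large endoplasmic reticulum (ER).

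Plasma cells are the end stage of the B cell lineage and secrete antibody. On the way there a B cell gives up its B cell program, led by Pax5, for one led by Prdm1 (Blimp-1), Irf4 and Xbp1, and enlarges the ER so that heavy, light and joining chains can be translocated, folded, glycosylated and exported. Jchain encodes the joining chain that links IgA dimers and IgM pentamers. The mature cell leaves the cell cycle, reduces antigen presentation on MHC class II, and survives on signals such as those received by the BCMA receptor (Tnfrsf17). Immunoglobulin genes were not analysed here, so neither the antibody class nor the clones of these cells can be given.

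The values that chose the members are given here as a description. Jchain lies on the minus strand at chr5:88519809-88527891 (GRCm38), and its lowest, median and highest UMI counts per member were 42, 584 and 1574. The member nearest to the threshold was a shallow cell of 1227 UMIs, 651 genes and 9.05% mitochondrial UMIs, and the next one had 157 Jchain UMIs. In all, 75 LSM cells had at least 20 Jchain UMIs. None of them failed the marker minimum, and 2 were kept out by Siglech. Those 2 barcodes held 1193 and 601 Jchain UMIs, 15 and 7 Siglech UMIs, and 30 and 34 UMIs of the 4 markers, in 10380 and 13213 UMIs. Among the remaining 2990 cells the highest Jchain count was 2: 191 cells had 1 UMI and 8 had 2, together 6.66%. Among the plasmacytoid dendritic-like cells, which were chosen with fewer than 20 Jchain UMIs, 5.52% had a Jchain UMI. Their low level is in part a description of that choice.

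**Figure D1:**
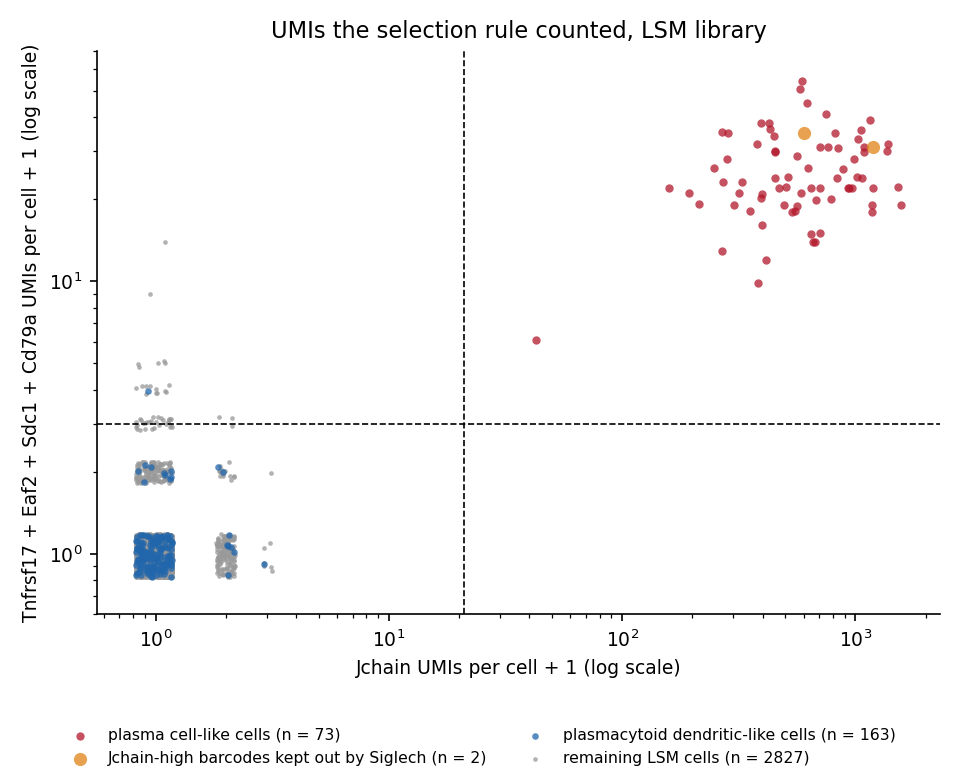
UMIs that the selection rule counted in each LSM cell: Jchain on the horizontal axis and the sum of Tnfrsf17, Eaf2, Sdc1 and Cd79a on the vertical axis, both plus 1 on log scales with a small random shift, dashed lines at the thresholds. The 73 plasma cell-like cells and the 2 barcodes kept out by Siglech lie to the right of the Jchain threshold, and no other cell has more than 2 Jchain UMIs.

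The same rule found no member among 1248 cells of the CD122+CD49a+ gate, which allows a share of up to 0.240% by a floor of 3 cells. That library had no Jchain UMI and 1 UMI over the other 4 markers in all its cells, at a median of 1464 UMIs per cell. The libraries shared 3 barcodes, none of them a member. Members were about as deep as the cells they are compared with: the lowest, median and highest UMI totals were 1227, 5642 and 15920 in the plasma cell-like cells and 711, 5080 and 17933 in other LSM cells. Jchain took 10.5% of the members' summed UMIs and between 2.18 and 29.4% in single members, so every other gene's share of a member's UMIs is lowered by that much. Mitochondrial UMIs made up a median of 1.87% in members and 1.36% in other LSM cells.

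The label was checked against genes that the rule did not use. Levels are given as CPM, a gene's UMIs scaled to 1000000 UMIs summed over a group's cells, and ratios are of CPM, members over other LSM cells. Mzb1, an ER co-chaperone of immunoglobulin assembly, reached 8975 CPM in the plasma cell-like cells and 27.2 CPM in other LSM cells, a ratio of 330-fold (298 to 365). It had a UMI in all 73 members, with 1, 43 and 222 UMIs as lowest, median and highest, against 4.68% of other LSM cells. It is not limited to plasma cells: the plasmacytoid dendritic-like cells had 395 CPM, with a UMI in 61.96% of cells. The other listed plasma cell markers outside the rule, Xbp1, Prdm1, Irf4, Derl3, Fkbp11 and Txndc5, were each at least 3-fold higher in members. Markers of other cell types varied. Of 12 conventional dendritic cell genes all 12 were at least 2-fold lower in members, of 15 monocyte and macrophage genes with enough UMIs 14 were, and of 10 progenitor genes all 10 were, where 25.1% of all genes were lower. All 7 mast cell and basophil genes and all 5 red cell genes were at 0 in members. Of 8 T and NK cell genes 5 were lower and 3 neither. Of 13 plasmacytoid dendritic cell genes 9 were lower and 4 neither (Bst2, Tcf4, Ly6d and Ly6c2), and every member had at least 2 UMIs of that list. Its summed level was 1692 CPM in members, 19785 CPM in the plasmacytoid dendritic-like cells and 2452 CPM in other LSM cells. The plasmacytoid dendritic-like cells were themselves chosen by such markers, so their level is in part a description of that choice. Hepatocyte transcripts were higher in members at a very low level, 15.3 CPM in members and 3.24 CPM in other LSM cells, a ratio of 4.72 (1.81 to 10.4). Their part in the results was not tested.

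Over all genes, 9504 had at least 50 UMIs in members and other LSM cells together. With 5 CPM added to each level, 691 of them were at least 2-fold higher in members (7.27% of genes) and 2384 at least 2-fold lower (25.1%). Higher genes were thus 22.5% of all called genes. The median log2 ratio of all genes was -0.41. Leaving Jchain out of the totals moved that median by 0.11 and the share of higher calls to 28.0%. With the median of all genes set to 0, 1276 genes were higher and 1379 lower, so that 48.1% of calls were higher. Against the plasmacytoid dendritic-like cells, 4914 genes had at least 20 UMIs over both groups, of which 490 were at least 2-fold higher in members (9.97%) and 1311 at least 2-fold lower (26.7%), with a median log2 ratio of -0.35.

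Genes of the secretory route were the broadest group above this background. Of 100 genes with enough UMIs over 5 lists (signal peptide recognition and translocon, chaperones and disulfide enzymes, N-glycan transfer, ER-associated degradation, and vesicles between ER and Golgi), 90 were at least 2-fold higher in members than in other LSM cells and none at least 2-fold lower. The share among all genes was 7.27%. Against the plasmacytoid dendritic-like cells, 73 of 97 were at least 2-fold higher and none lower, where 9.97% of all genes were higher. As single cells, members kept apart as well. The 48 translocon and folding genes made up 3.46, 7.47 and 14.9% of the UMIs left after Jchain in the lowest, median and highest member, against 0, 0.744 and 5.19% in other LSM cells and 0.772, 1.41 and 2.40% in the plasmacytoid dendritic-like cells. A single other LSM cell reached the lowest member, and it was 1 of the 2 Jchain-high barcodes kept out by Siglech. That barcode, with 15 Siglech and 12 Cox6a2 UMIs, met the other limits of the plasmacytoid dendritic-like class and was left out by Jchain. Without the 2 barcodes the highest was 2.54%. Summed over cells, the CPM of these 48 genes were 8.09-fold (7.99 to 8.19) those of other LSM cells. The 48 genes include Mzb1, already used to check the label. It made up 8975 of the 39512 CPM of the chaperone and disulfide list in members, and the ratio without it was not computed.

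**Figure D2:**
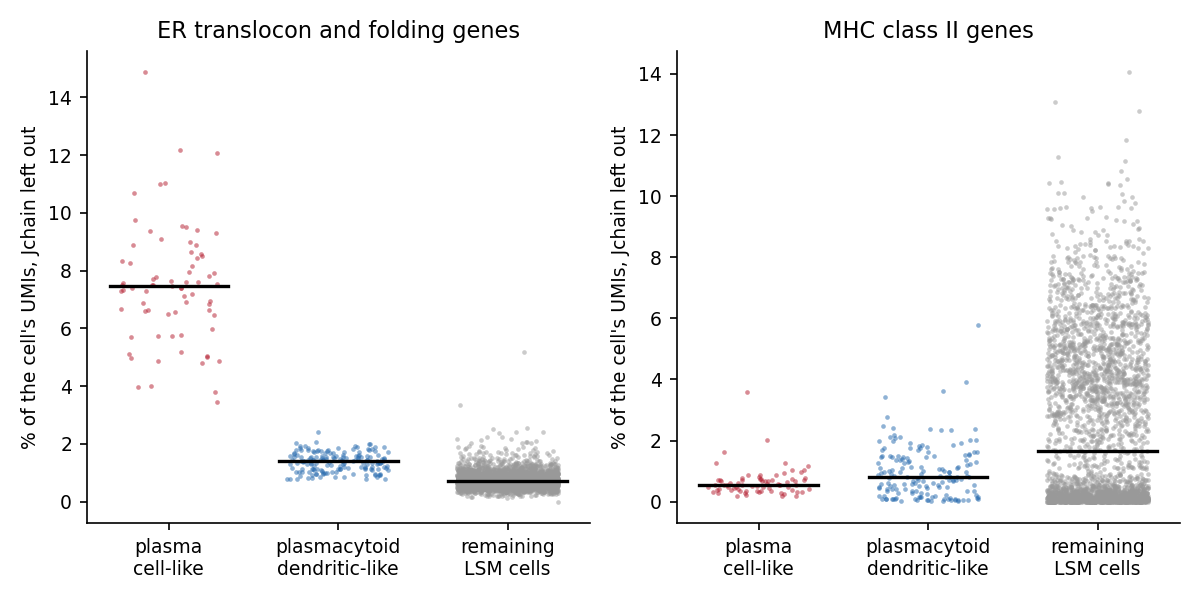
Share of each cell's UMIs, Jchain left out, taken by the 48 ER translocon and folding genes (left) and by 9 MHC class II genes (right), in the 73 plasma cell-like cells, 163 plasmacytoid dendritic-like cells and the remaining LSM cells (with them the 2 Jchain-high barcodes kept out by Siglech), 1 point per cell with a bar at the median. ER shares of the plasma cell-like cells start at 3.46%, above every plasmacytoid dendritic-like cell (highest 2.40%), a class from which Jchain-high barcodes were left out. Their MHC class II shares lie in the lower part of the range of the remaining cells, as do those of many remaining cells.

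The promoters of the ER chaperone genes are shown because these genes were high together. Many ER chaperone genes are known to carry the ER stress response element, in which CCAAT and CCACG stand 9 bases apart and which ATF6 and XBP1, with NF-Y, can bind. RefSeq promoter windows (GRCm38.p6), cut to the 250 bases before the start, were searched on both strands for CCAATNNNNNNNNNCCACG, where N is any base. It was found in 35 of 27025 genes with a window (0.130%). Of 19 chaperone and disulfide enzyme genes with a window, 7 held it (36.8%): Hspa5, Hsp90b1, Pdia6, Calr, Canx, Dnajc3 and Creld2. In ER-associated degradation 2 of 11 did, Derl3 and Syvn1, and in the translocon, N-glycan, vesicle and stress sensor lists none of 16, 11, 21 and 11 did. Of these 9 genes 8 were at least 2-fold higher in members, and Canx had a ratio of 1.93-fold (1.56 to 2.37). That share is near that of the 5 secretory lists, in which 90 of 100 genes were higher, with the motif or without. A match is a run of letters and not a shown binding site. Of the 4 windows printed, those of Hspa5 and Hsp90b1 belong to abundant chaperones, and those of Creld2 and Derl3 to genes that were low in other LSM cells. Each reads 5′ to 3′ on the gene's own strand and ends just before the start, with the paired CCAAT and CCACG, or their reverse complements ATTGG and CGTGG, in capitals.
Hspa5, chr2:34771840-34772089, plus strand: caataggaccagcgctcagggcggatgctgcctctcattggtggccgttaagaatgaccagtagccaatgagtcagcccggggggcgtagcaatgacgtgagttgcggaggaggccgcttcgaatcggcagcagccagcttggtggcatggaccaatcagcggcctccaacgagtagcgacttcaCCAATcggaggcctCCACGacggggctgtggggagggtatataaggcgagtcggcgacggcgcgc
Hsp90b1, chr10:86705445-86705694, minus strand: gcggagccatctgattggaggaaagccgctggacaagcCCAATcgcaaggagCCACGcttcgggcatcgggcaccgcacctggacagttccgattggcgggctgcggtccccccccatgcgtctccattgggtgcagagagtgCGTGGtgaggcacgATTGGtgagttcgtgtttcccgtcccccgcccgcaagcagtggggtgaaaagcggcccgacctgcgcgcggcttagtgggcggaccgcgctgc
Creld2, chr15:88819396-88819645, plus strand: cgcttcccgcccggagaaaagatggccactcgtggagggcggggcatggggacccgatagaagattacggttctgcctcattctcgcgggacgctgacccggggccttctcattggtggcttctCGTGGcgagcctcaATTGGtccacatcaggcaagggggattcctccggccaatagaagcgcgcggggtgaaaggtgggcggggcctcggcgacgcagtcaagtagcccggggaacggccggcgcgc
Derl3, chr10:75893148-75893397, plus strand: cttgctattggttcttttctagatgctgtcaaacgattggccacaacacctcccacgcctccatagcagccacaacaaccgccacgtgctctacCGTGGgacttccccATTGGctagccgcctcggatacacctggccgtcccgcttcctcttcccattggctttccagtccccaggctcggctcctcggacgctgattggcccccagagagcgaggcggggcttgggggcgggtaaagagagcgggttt
Hsp90b1 holds the pair in both orientations, at 212 to 194 and at 107 to 89 bases before the start. The pair of Hspa5 lies 65 to 47 bases before it.

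Chaperones and disulfide enzymes were higher in 24 of 25 genes, with a median log2 ratio of 2.62. Hspa5 (BiP), the main ER chaperone of the HSP70 family, had 1, 10 and 94 UMIs in the lowest, median and highest member and reached 2653 CPM in the plasma cell-like cells and 568 CPM in other LSM cells, a ratio of 4.67-fold (4.396 to 4.96). Hsp90b1 (GRP94) had 4, 23 and 165 UMIs and a ratio of 15.1-fold (14.4 to 15.9). Both were found in all 73 members, and in 80.3% (Hspa5) and 66.2% (Hsp90b1) of other LSM cells. Fkbp11, an ER peptidyl-prolyl isomerase, had the widest ratio of the list, 544-fold (357 to 869). It stood at 795 CPM in the plasma cell-like cells and 1.46 CPM in other LSM cells, with a UMI in 80.8% of members and 0.568% of other LSM cells. Txndc5, a disulfide isomerase, was in every member, with 3, 16 and 68 UMIs, and its ratio was 64.7-fold (58.9 to 71.1). Creld2 reached 18.2-fold (15.99 to 20.7) and Pdia4 26.2-fold (24.04 to 28.5). Pdia3 and Calr, which serve glycoprotein folding in most cells, were closer, at 2.26-fold (2.02 to 2.53) and 3.799-fold (3.43 to 4.197).

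Of 22 genes of entry into the ER, the translocon and signal peptide list, 20 were at least 2-fold higher, with a median log2 ratio of 2.16. Sec11c, a catalytic subunit of signal peptidase, had 2, 30 and 60 UMIs per member and a ratio of 15.4-fold (14.6 to 16.2), whereas Sec11a, the other catalytic subunit, had 2.07-fold (1.72 to 2.46). Ssr4, a subunit of the translocon-associated protein complex, reached 11.02-fold (10.5 to 11.5), and the channel subunits Sec61b and Sec61g 4.47-fold (4.27 to 4.68) and 3.77-fold (3.59 to 3.96). Srp14 and Sec62 did not reach 2-fold, at 1.33-fold (1.12 to 1.57) and 1.96-fold (1.602 to 2.37).

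N-glycan transfer showed smaller ratios, with 13 of 15 genes at least 2-fold higher and a median log2 ratio of 1.73. Ddost and Rpn1, subunits of the oligosaccharyltransferase, stood at 6.71-fold (6.07 to 7.402) and 6.48-fold (5.55 to 7.53), and its catalytic subunit Stt3a at 3.96-fold (3.11 to 4.99). Tusc3, an alternative subunit of the second form of the enzyme, was 1 of the 2 genes that did not reach 2-fold. It had 15.3 CPM in members and 23.7 CPM in other LSM cells. All 14 genes of ER-associated degradation, which returns misfolded proteins to the cytosol, were at least 2-fold higher (median log2 ratio 2.54). Derl3 was at 981 CPM in the plasma cell-like cells and 2.29 CPM in other LSM cells and was found in 91.8% of members and 0.902% of other LSM cells. Its relatives Derl1 and Derl2 had ratios of 9.23-fold (8.11 to 10.5) and 3.66-fold (2.92 to 4.53). Edem1 and Edem2, which recognise trimmed glycans, reached 23.8-fold (21.02 to 26.99) and 20.7-fold (18.2 to 23.5).

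Of 24 vesicle genes 19 were at least 2-fold higher. Lman1, the cargo receptor ERGIC-53, had a ratio of 21.3-fold (17.9 to 25.4), and its partner Mcfd2 2.03-fold (1.24 to 3.15). Kdelr1 and Kdelr2, which return escaped chaperones to the ER, had 3.76-fold (3.15 to 4.47) and 6.21-fold (5.37 to 7.15). Kdelr3 was seen in 15 members with 18 UMIs and in no other LSM cell, at least 206-fold higher against a floor of 3 UMIs in the other cells. The COPII coat gene Sec24a reached 12.98-fold (8.48 to 19.5), while Sec31a of the same coat stayed at 1.65-fold (0.933 to 2.72).

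**Figure D3:**
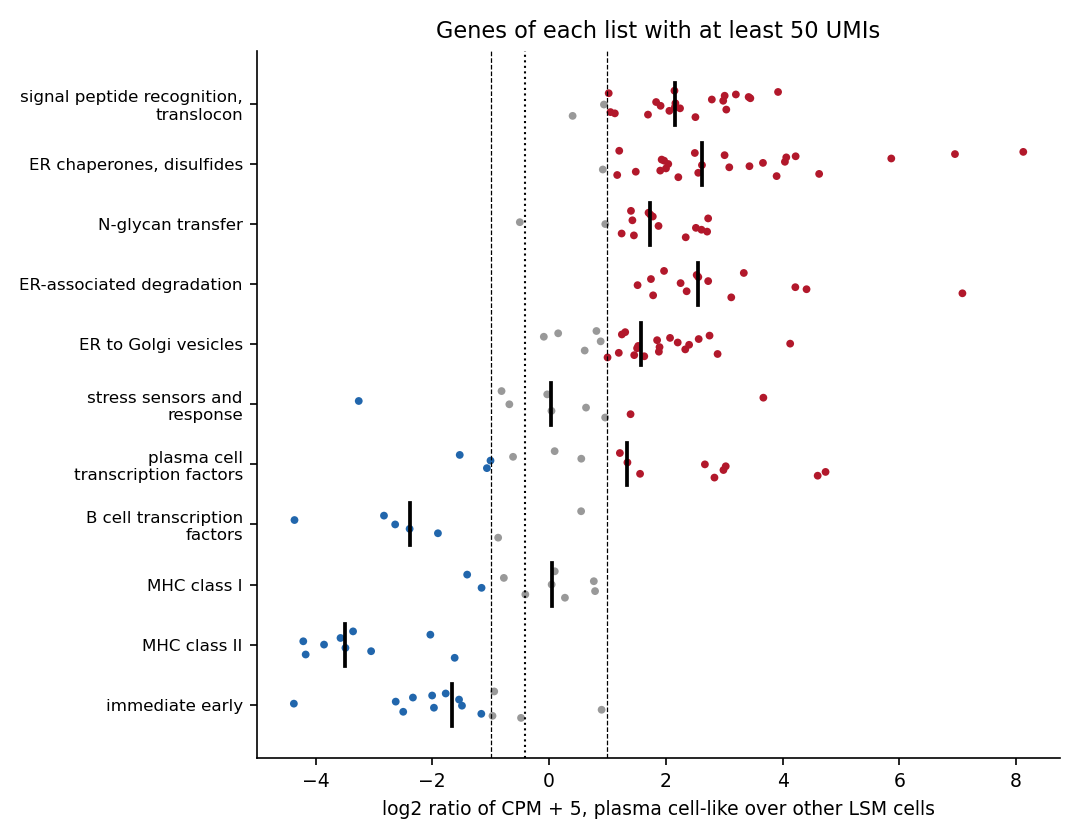
Log2 ratio of CPM with 5 added, plasma cell-like over other LSM cells, for each gene with at least 50 UMIs in 11 lists, 1 point per gene with a bar at the list's median; red and blue mark genes at least 2-fold higher and lower, the dashed lines stand at 2-fold and the dotted line at the median of all genes, -0.41. The 5 secretory lists lie almost wholly to the right of the upper 2-fold line, and all 9 MHC class II genes to the left of the lower one.

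The stress sensors and the integrated stress response did not follow the chaperones as a list. Of 9 genes 2 were at least 2-fold higher and 1 was lower, and the median log2 ratio was 0.04. Over all genes 7.27% were higher and 25.1% lower, with a median of -0.41. The summed CPM of the list were 0.718 times (0.632 to 0.813) those of other LSM cells and 1.38 times (1.16 to 1.64) those of the plasmacytoid dendritic-like cells. Atf3 alone made up 315 of the 776 CPM in other LSM cells and 28.4 of the 557 CPM in members. The ratio without it was not computed. Atf4, the main transcription factor of the integrated stress response, had 173 CPM in the plasma cell-like cells and 168 CPM in other LSM cells. Ddit3 (CHOP), a pro-apoptotic factor of prolonged ER stress, had a ratio of 1.66-fold (0.989 to 2.63), and Atf3 28.4 CPM in members and 315 CPM in other LSM cells. Eif2ak3 (PERK) was at 3.69-fold (1.91 to 6.55). Asns, asparagine synthetase, was high in a minority, with a UMI in 17 of 73 members, and stood at 76.5 CPM in members and 1.399 CPM in other LSM cells.

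Among regulators of antibody-secreting cells 9 of 15 were at least 2-fold higher, 3 lower and 3 neither, where 7.27% of all genes were higher and 25.1% lower. Xbp1, whose spliced form drives ER expansion, had 2, 13 and 48 UMIs in the lowest, median and highest member. It reached 2588 CPM in the plasma cell-like cells and 102 CPM in other LSM cells, 25.4-fold (23.5 to 27.4), and was in all 73 members against 35.7% of other LSM cells. Prdm1, which represses the B cell program, was sparse, with a UMI in 21 members and a ratio of 16.2-fold (9.65 to 26.5). Irf4 had UMIs in 17 members and a ratio of 3.74-fold (2.26 to 5.88). Pou2af1 (OBF-1), a B-lineage coactivator, was in 45 members and 0.0668% of other LSM cells, with 133 CPM in members and 0.191 CPM in other LSM cells. Ell2, an elongation factor that favours the secreted form of the heavy chain, had 11.6-fold (8.25 to 16.1), Ikzf3 (Aiolos) 16.7-fold (10.6 to 25.8), and Creb3l2 13.6-fold (8.02 to 22.4). Ikzf1 and Pou2f2, regulators of many lymphocytes, were lower. Ikzf1 had 30.6 CPM in members and 66.3 CPM in other LSM cells, and Pou2f2 34.97 CPM in members and 110 CPM in other LSM cells.

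Regulators of earlier B cells were low. Pax5 had no UMI in members and 2 UMIs among all other LSM cells, so its level could not be told apart at this depth. Spib and Ciita, the master regulator of MHC class II, were at 0 in members, at least 3.23- and 3.98-fold lower against a floor of 3 UMIs in members. Irf8, high in dendritic cells and in earlier B cells, had 17.5 CPM in the plasma cell-like cells and 457 CPM in other LSM cells, and 1805 CPM in the plasmacytoid dendritic-like cells. Of 7 such regulators with enough UMIs, 5 were at least 2-fold lower, where 25.1% of all genes were, and none was at least 2-fold higher. Ebf1 was an exception among those with too few UMIs: 11 members had a UMI, 15.1% of them, against 0.535% of other LSM cells.

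Of 11 surface genes of B cells 4 were at least 2-fold higher, 4 lower and 3 neither, where 7.27% of all genes were higher and 25.1% lower. Against the plasmacytoid dendritic-like cells 3 of 8 were higher and 4 lower, where 9.97% of all genes were higher and 26.7% lower. The ratio of summed CPM over those cells was 0.328 (0.304 to 0.353). Cd79b, the partner of Cd79a in the B cell receptor, was in 71 of 73 members and reached 715 CPM in the plasma cell-like cells and 30.7 CPM in other LSM cells, 23.3-fold (20.2 to 26.9). Vpreb3, which is known from early B cells and binds immunoglobulin chains in the ER, was in 36 members and had 1 UMI among all other LSM cells. Ms4a1 (CD20), lost on plasma cells, had a UMI in 1 member, and Cd22, Cr2, Fcer2a, Cd40, Bank1 and Fcmr in none. Of the 17 genes on the full list, 6 had too few UMIs over both groups to be called. For genes that sparse, a lack of UMIs in members cannot be told apart from an equal level at this depth. The counts of Ms4a1 and of the genes without a UMI are therefore not read as a loss. Cd24a had 372 CPM in members and 160 CPM in other LSM cells.

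Of 15 survival receptors and other surface genes of antibody-secreting cells 6 were at least 2-fold higher, 3 lower and 6 neither, with a median log2 ratio of 0.01. Over all genes 7.27% were higher and 25.1% lower. Tnfrsf13b (TACI), a receptor for BAFF and APRIL, had 247 CPM in the plasma cell-like cells and 59.7 CPM in other LSM cells. The plasmacytoid dendritic-like cells had 224 CPM of it. Cd28, a costimulatory receptor that also supports plasma cell survival, was in 37 members with a ratio of 48.97-fold (33.2 to 72.7). Cd55, a complement regulator, was in 30 members and 0.334% of other LSM cells. Slamf7 and Cd81 had ratios of 2.59-fold (2.12 to 3.14) and 2.74-fold (2.301 to 3.25). Cd38 and Cd27, markers of human plasma cells, had 1 UMI each in all members together.

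Of 15 homing genes 3 were at least 2-fold higher, 6 lower and 6 neither, where 7.27% of all genes were higher and 25.1% lower. Ccr10, the receptor for CCL27 and CCL28 known from IgA plasma cells of mucosal tissue, had 0, 1 and 11 UMIs as lowest, median and highest. It had a UMI in 52 of 73 members and 0.234% of other LSM cells, with 343 CPM in members and 0.445 CPM in other LSM cells. Ccr9, the small intestinal receptor, had a UMI in 9 members, all of which also had one of Ccr10. Itgb7, a subunit of the gut-homing integrin, was in 64 members at 463 CPM in the plasma cell-like cells and 230 CPM in other LSM cells, a ratio of 2.01-fold (1.74 to 2.31). That ratio is at the 2-fold limit and was counted as neither once 5 CPM were added to each level. Its partner Itga4 had 129 CPM in members and 131 CPM in other LSM cells. Cd69, which holds lymphocytes in tissue, had 389 CPM in members and 137 CPM in other LSM cells. Cxcr4, which guides plasma cells to bone marrow, had 2 UMIs in all members together, which gives 4.37 CPM in members and 34.4 CPM in other LSM cells. Cxcr3 had 19.7 CPM in members and 12.6 CPM in other LSM cells, with an interval of the ratio from 0.704 to 3.02.

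Shares of cells with a UMI depend on depth, so they were also taken with each cell thinned to 1500 UMIs. Ccr10 had a UMI in 34.7% of 72 members (23.9 to 46.9%), 0% of 163 plasmacytoid dendritic-like cells and 0.0346% of 2894 other LSM cells. Cd28 had one in 16.7% of members and 0.691% of other LSM cells, and Itgb7 in 48.6% of members and 26.1% of other LSM cells. Thinning left out 1 member and 98 other LSM cells below 1500 UMIs.

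**Figure D4:**
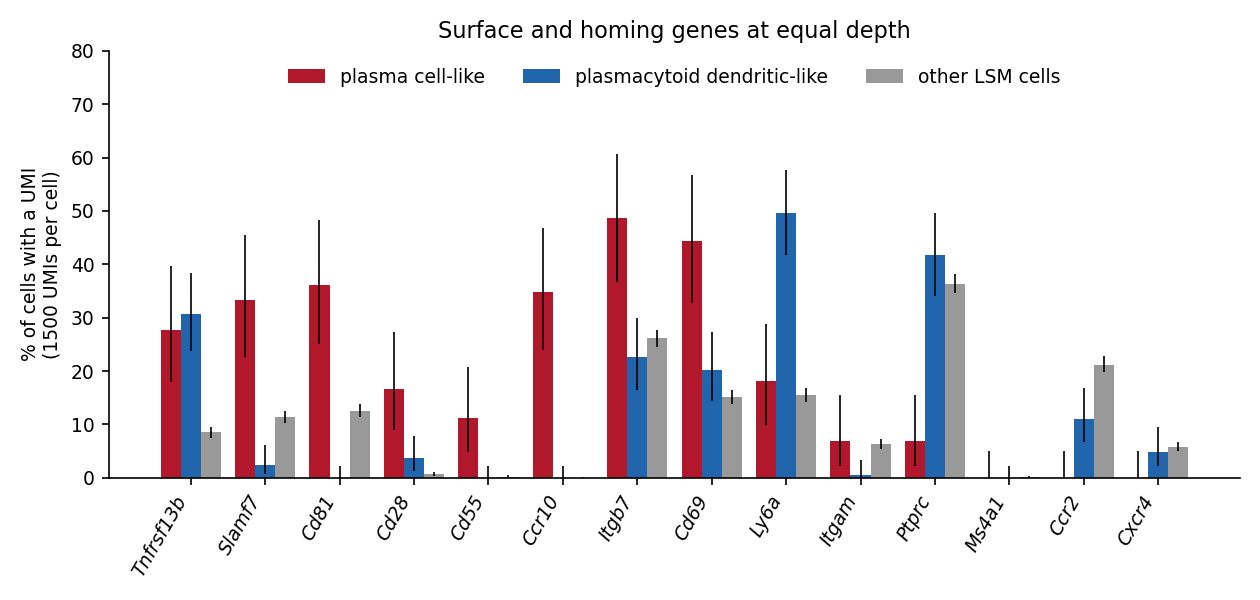
Share of cells with a UMI of surface and homing genes after thinning to 1500 UMIs per cell, in 72 plasma cell-like, 163 plasmacytoid dendritic-like and 2894 other LSM cells, with exact 95% intervals. Ccr10, Cd28 and Cd55 stand out in the plasma cell-like cells (34.7%, 16.7% and 11.1%, against 0.0346%, 0.691% and 0.207% in other LSM cells), and Ptprc and Ccr2 are lower in them.

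Of 5 genes of the sorted proteins none was at least 2-fold higher in members, 1 was lower and 4 were neither. Over all genes 7.27% were higher and 25.1% lower. The 3 described here, Ly6a, Itgam and Ptprc, each had a UMI in a minority of members. Ly6a, which encodes Sca-1, had a UMI in 24 of 73 members (32.9%, 22.3 to 44.9%), 69.3% of plasmacytoid dendritic-like cells and 29.7% of other LSM cells. After thinning to 1500 UMIs the Ly6a shares were 18.1% of members, 49.7% of plasmacytoid dendritic-like cells and 15.5% of other LSM cells. Itgam, the Mac-1 alpha chain, had a UMI in 10 members (13.7%) and in 14.5% of other LSM cells. No member had UMIs of both genes, and 39 had neither. Ptprc, which encodes CD45, had a UMI in 19 members (26.03%) against 71.5% of other LSM cells, and its ratio of CPM was 0.191 (0.124 to 0.283). After thinning the Ptprc shares were 6.94% of members and 36.3% of other LSM cells. For these 3 genes transcripts and sorted surface protein cannot be compared in these data.

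All 9 MHC class II genes were at least 2-fold lower in members than in other LSM cells, where 25.1% of all genes were. Their median log2 ratio was -3.49, and their summed CPM were 0.203 times (0.195 to 0.211) those of other LSM cells. Single other LSM cells ranged widely, and many had a share below that of the median member. The summed ratio therefore does not hold against each of these cells. The lowest, median and highest shares of UMIs were 0, 1.34 and 14.1% in them and 0.130, 0.501 and 3.23% in members. Against the plasmacytoid dendritic-like cells 6 of 8 genes were lower (26.7% of all genes), with a summed ratio of 0.556 (0.531 to 0.581). H2-Aa and H2-Ab1 are chains of the presenting molecule. H2-Aa had 208 CPM in members and 3820 CPM in other LSM cells, and H2-Ab1 540 CPM in members and 4501 CPM in other LSM cells. H2-DMa, which loads peptide, had 41.5 CPM in members and 668 CPM in other LSM cells. Cd74, the invariant chain, was the least lowered, at 4447 CPM in the plasma cell-like cells and 13651 CPM in other LSM cells, with a UMI in every member. One member held 39 of the 95 H2-Aa UMIs. It was also the member highest in monocyte and macrophage genes, with 30 of their UMIs among 9293 and 964 Jchain UMIs, and without it the class II ratio was 0.183. MHC class I genes were mostly near equal: 7 of 9 were within 2-fold, with B2m at 2887 CPM in members and 1670 CPM in other LSM cells.

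UMIs of genes that other LSM cells hold in bulk were present in members at unequal fractions of those cells' levels. The ratio was 0.0208 for Lyz2, 0.0395 for Tyrobp, 0.124 for Cst3 and 0.326 for Cd74, and the complement genes C1qa, C1qb and C1qc were at 0. The summed level of the 16 monocyte and macrophage genes was 378 CPM in members and 5588 CPM in other LSM cells, with 11 of the 16 at 0 in members. Free RNA in the droplets gives such UMIs as well, and its part in these values was not tested.

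Cell cycle UMIs were few in all members except 1. Over 22 genes of replication and mitosis, members had a median of 3 UMIs, and 72 of 73 had at most 12, a count that 447 other LSM cells (14.9%) exceeded. The exception had 323, among them all 16 Birc5 and all 8 Cdk1 UMIs of the members, 18 of 20 Ube2c and 153 of 211 Hist1h2ap UMIs. It was also the deepest member, with 15920 UMIs, 2801 genes, 222 UMIs of Mzb1 and 495 of Jchain. Of the 22 genes 8 were at least 2-fold lower, 14 neither and none higher, with that cell among the members. Over all genes 25.1% were lower and 7.27% higher. The list's median log2 ratio was -0.50, near the -0.41 of all genes. Against the plasmacytoid dendritic-like cells 1 of 12 genes was higher and 2 lower, with a median log2 ratio of 0.004, where that of all genes was -0.35. The summed ratio was 0.545 (0.501 to 0.593) with this cell and 0.242 (0.212 to 0.275) without it.

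Of 14 survival and death regulators 2 were at least 2-fold higher in members, 5 lower and 7 neither, where 7.27% of all genes were higher and 25.1% lower. Their median log2 ratio was -0.75, and their summed CPM, to which Cd74 contributed most, were 0.387 times (0.373 to 0.402) those of other LSM cells. The higher genes were Fam46c and Bcl2l11. Fam46c (Tent5c), a poly(A) polymerase known to stabilise transcripts of secreted proteins in plasma cells, had 490 CPM in the plasma cell-like cells and 9.54 CPM in other LSM cells, 51.3-fold (41.5 to 63.5). Mcl1, the BCL2 relative that plasma cells need, was near equal at 616 CPM in members and 578 CPM in other LSM cells. Bcl2a1d had no UMI in members, at least 35.5-fold lower than the 233 CPM of other LSM cells against a floor of 3 UMIs in members, and Bcl2a1b had 15.3 CPM in members and 306 CPM in other LSM cells. Reads of these near-identical paralogs may have been shared between them. Pro-apoptotic Bcl2l11 (BIM) had 80.9 CPM in members and 25.5 CPM in other LSM cells. Of 12 genes of amino acid transport and activation 5 were at least 2-fold higher, 2 lower and 5 neither, with the same shares over all genes. Among the higher ones was Slc3a2, the heavy chain of several transporters, at 3.19-fold (2.62 to 3.85).

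The 20 protein-coding genes with the highest ratio, among those with at least 100 CPM and a UMI in at least 25% of members, were Jchain, Mzb1, Tnfrsf17, Cd79a, Derl3, Eaf2, Fkbp11, Ccr10, Txndc5, Vpreb3, Sfn, Fam46c, Epcam, Trp53inp1, Myl4, Pou2af1, Tram2, Pdia4, a and Xbp1. Jchain, Tnfrsf17, Cd79a and Eaf2 are there by the rule. Several of the others were not described above. Epcam, an epithelial adhesion molecule, was in 55 members at 299 CPM in the plasma cell-like cells and 4.71 CPM in other LSM cells. Sfn, the 14-3-3 sigma protein, was in 37 members, at 260 CPM in members and 2.29 CPM in other LSM cells. Myl4, an atrial and embryonic myosin light chain, was in 45 members, at 221 CPM in members and 3.31 CPM in other LSM cells. The agouti gene a, a pigment signal of the skin, was in 37 members, at 133 CPM in members and 0.636 CPM in other LSM cells. Trp53inp1, a stress-induced p53 partner, had 45.6-fold (35.7 to 58.4), and Tram2, a translocon-associated protein, 50.2-fold (37.1 to 68.1). None of these was carried by a few cells: the highest single count was 17 UMIs for Sfn, 7 for Epcam, 8 for Myl4 and 5 for a.

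The 10 lowest ratios, among genes with at least 100 CPM in other LSM cells, belonged to Ccl4, Lst1, Bcl2a1d, Cxcl9, Rgs1, Ccl3, Ccl5, S100a4, Lyz2 and Ramp1. Ccl3, Ccl4 and Ccl5, chemokines of activated myeloid and lymphoid cells, had 6, 12 and 8 UMIs in all members. Ccl4 stood at 26.2 CPM in the plasma cell-like cells and 1630 CPM in other LSM cells, and Rgs1, a regulator of chemokine receptor signals, at 6.56 CPM in members and 520 CPM in other LSM cells. Of 9 cytokine and chemokine genes with enough UMIs, 8 were at least 2-fold lower, where 25.1% of all genes were. Il10, reported from regulatory plasma cells, had no UMI in members. It had 4 UMIs among other LSM cells, so no difference was detectable at this depth. Gzma, a granule protease of cytotoxic cells, was spread thinly: 21 members (28.8%) had 1 to 3 UMIs, against 1.67% of other LSM cells, although its level was 63.4 CPM in members and 82.2 CPM in other LSM cells. After thinning in a single random draw, 1.39% of 72 members and 1.28% of 2894 other LSM cells had one. The thinned share of members rests on very few cells, and its difference from the unthinned share was not tested.

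Members varied among themselves more in some genes than counting allows. Over 776 genes with at least 60 UMIs in members, the variance across members divided by the variance expected from counting had a median of 1.23, and 54 genes were above 5. Jchain led with 264, followed by Crip1 with 211 and Slpi with 115. Mzb1, Hspa5, Hsp90b1 and Manf were at 15.02, 14.1, 13.8 and 10.2. Some of this spread was that of single cells. Slpi, a secreted protease inhibitor, had 126 of its UMIs (81.3%) in 1 member, 15 in the next, and was at 0 in 63. The member with 126 was also the highest in Ly6a, with 23 UMIs, and had 1383 Jchain UMIs in 5632. Isg15, an interferon-induced gene, had 65, 52 and 27 UMIs in its 3 highest members and was at 0 in 55.

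Across the 73 members, genes moved in opposed groups with the Jchain level, each taken per 10000 of a cell's UMIs with Jchain left out. Spearman's rho with Jchain was 0.78 for Fos, 0.75 for Ssr4, 0.64 for Xbp1, 0.59 for Jun, 0.53 for B2m and 0.49 for Txndc5. It was -0.49 for Sfn, -0.48 for Anxa2, -0.45 for Crip1 and -0.43 for S100a10. The 4 genes Crip1, Vim, S100a10 and Pycard had rho of 0.65, 0.62, 0.62 and 0.63 with Anxa2, which had a UMI in 39 members. The secretory lists did not move as one. The translocon list had 0.55 with Jchain, whereas the chaperone list had -0.08, Hspa5 -0.19 and Hsp90b1 -0.35. All cells came from 1 library, and depth moved with Jchain: its rho with the UMI total left after Jchain was -0.63. That of Fos was -0.55, of Xbp1 -0.27, of Anxa2 0.30 and of S100a10 0.10. The part of depth in these relations was not tested.

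**Figure D5:**
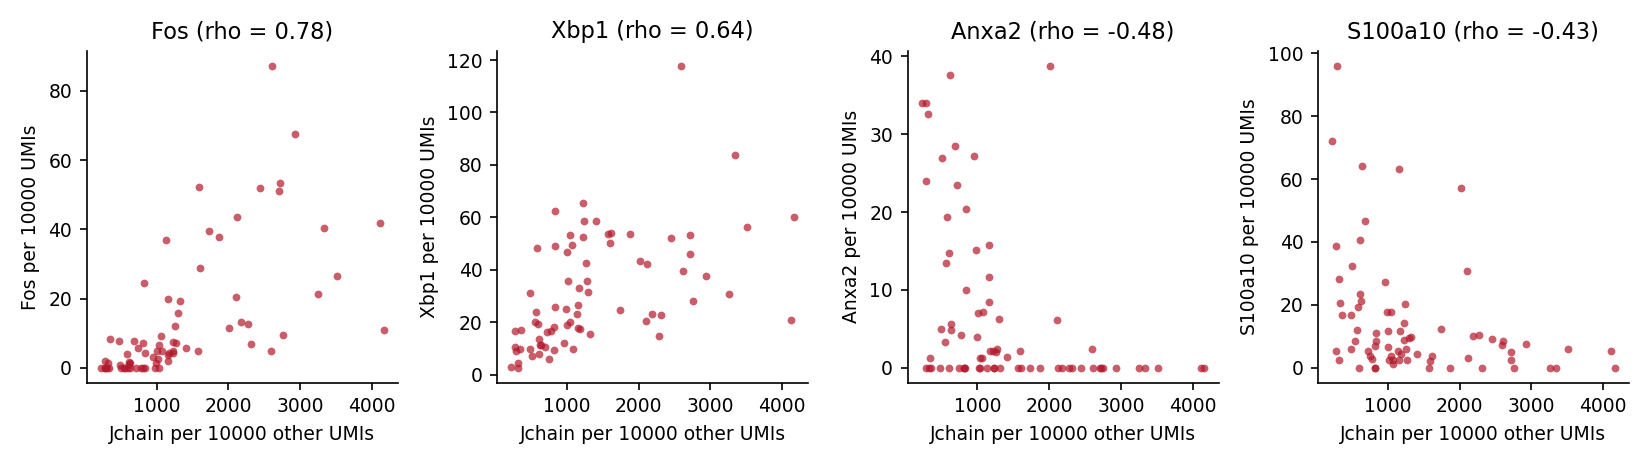
Fos, Xbp1, Anxa2 and S100a10 against Jchain in the 73 plasma cell-like cells, each per 10000 UMIs of the cell with Jchain left out, 1 point per cell, with Spearman's rho above each panel. Cells high in Jchain tend to be high in Fos and Xbp1 and low in Anxa2 and S100a10, and 34 of the 73 cells have no Anxa2 UMI.

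Immediate early genes, which are induced by stimulation and by tissue dissociation, were lower in members than in other LSM cells, with 10 of 14 at least 2-fold lower (25.1% of all genes) and a median log2 ratio of -1.66, where that of all genes was -0.41. Against the plasmacytoid dendritic-like cells this was not seen: 1 of 14 was at least 2-fold lower (26.7% of all genes) and none higher, the median log2 ratio was -0.31, where that of all genes was -0.35, and the ratio of summed CPM was 1.08 (1.03 to 1.13). Junb had 256 CPM in members and 1468 CPM in other LSM cells, and Dusp1 78.7 CPM in members and 512 CPM in other LSM cells. Fos had 964 CPM in members and 1346 CPM in other LSM cells, and Jund 3140 CPM in members and 1681 CPM in other LSM cells.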

How the data were processed

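Gene by cell matrices of UMI counts, as deposited by the authors, were the starting point: raw whole-number counts, 1 library per gate, with software version 3.0.1 in the matrix, per the file headers. Per the submitters' processing notes, GRCm38 was the build and the tools included Seurat 2.3.0 and STAR, whose roles are not given there. The choice of barcodes is likewise not given. The LSM matrix held 3133 barcodes and 16226070 UMIs, the CD122+CD49a+ matrix 1655 and 2632303. Of the LSM barcodes, 59 had fewer than 500 detected genes and 9 more than 10% mitochondrial UMIs. No per-sample column was left unused (0).

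Counts were summed over the cells of a class and scaled to CPM (Python 3.11.15, numpy 2.4.6, scipy 1.17.1, pandas 2.3.3). Ratios carry exact conditional intervals, shares Clopper-Pearson intervals, all at 95%. UMIs that clump within cells make true errors wider. A gene with 0 UMIs was set at a floor of 3 UMIs over the class. Calls used CPM plus 5, a fold of 2 and at least 50 UMIs over both groups (20 against the plasmacytoid dendritic-like cells). With 1 library per group there was no test across samples. Doublets were kept; an alternative removed the 77 cells (2.51%) with the highest Scrublet scores (scanpy 1.11.5), 2 of them members. The ratio and interval procedure was tested on simulated data. Promoter windows came from RefSeq tables.

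The members and the gene lists were chosen with earlier results of these data known. Named were list genes with at least 50 CPM in either group or defining for the cell type, and the 20 highest and 10 lowest protein-coding genes as described. Mitochondrial, ribosomal protein, numbered predicted and receptor segment genes were left out of that ranking. Irf4, Ebf1, Kdelr3, Eif2ak3, Ddit3, Slpi, Isg15, Cxcr3, Cd38 and the genes of the relations across members were named after their values were seen. Alternatives were other cell filters, rule thresholds, scalings, pseudocounts and UMI minimums, and leaving out single cells. Immunoglobulin genes were not analysed here, and a few other list members, which the list counts include, are not reported by name.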

Additional observations from a re-analysis of the deposited data

How the results depend on the processing

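No paired analysis was possible because each gate had 1 library and no result comes from a test. The number of members was 71 to 75 under every other threshold, filter or doublet setting tried. With at least 200 UMIs per gene, 458 genes were at least 2-fold higher. The ratio of ER translocon and folding UMIs was 7.96 without the Siglech limit, 9.03 with Jchain out of the totals, 8.29 with CPM averaged over cells and 7.98 without the cycling member. The MHC class II ratio was 0.227 with Jchain out of the totals, 0.231 with averaged CPM and 0.183 without the member highest in monocyte genes. The cell cycle ratio was 0.609 with Jchain out of the totals, 0.480 with averaged CPM and 0.242 without the cycling member. The share of members with a Ly6a UMI was 18.1% after thinning to 1500 UMIs, which leaves fewer UMIs per cell. The cause of the other shifts was not tested. Leaving out a single member, or the 2 Jchain-high barcodes among the other LSM cells, was chosen after seeing the data. Of 400 listed or named genes, 61 crossed the 2-fold limit in at least 1 alternative (92 of 6000 values), among them Itgb7, Canx, Ikzf1, Ccr9 and Gzma, and none that had passed it reversed. Depth limits sparse genes: Prdm1 and Irf4 rest on 25 and 21 UMIs in members.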

Other observations

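Outside the lists, several further genes were raised in a large part of the members. Bhlhe41, a transcription factor known from innate-like B-1 cells, had a UMI in 28 of 73 members and 1 UMI among all other LSM cells. Ctla4, an inhibitory receptor best known from T cells, was in 35 members, at 116 CPM in members and 2.16 CPM in other LSM cells, a ratio of 53.5 (34.2 to 85.0). St6gal1, which adds sialic acid to secreted and surface glycoproteins, was in 42 members, with a ratio of 62.8 (41.0 to 97.7). Cacna1s, a calcium channel subunit of skeletal muscle, was in 35 members, at 212 CPM in members and 9.35 CPM in other LSM cells.

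Chchd10, a mitochondrial protein encoded in the nucleus, was in 54 members, at 382 CPM in members and 13.99 CPM in other LSM cells, and Ndufa4, a subunit associated with cytochrome oxidase, was in 72 members, at 4122 CPM in members and 620 CPM in other LSM cells, with a highest count of 88 UMIs. Pycard, the inflammasome adaptor, was in all 73 members, at 3134 CPM in members and 311 CPM in other LSM cells.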
